A study of Homo sapiens with 10 samples.

Results

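The genes described here make, move and degrade heme in MDA-MB-231 cells, and they were chosen by name for these roles. There were 10 of them among the 36432 usable gene symbols of the table: ALAS1, UROD, CPOX and FECH for synthesis, HMOX1, HMOX2, BLVRA and BLVRB for breakdown, and FLVCR1 and SLC48A1 for transport. All 10 were among the 13418 genes tested, for which 2 or more libraries had to reach 1 TPM.

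Heme is an iron-containing porphyrin that serves as the cofactor of cytochromes, catalases and other enzymes. Its synthesis starts and ends in mitochondria, with intermediate steps in the cytosol, and the first enzyme, ALAS1, sets the rate in cells other than red cell precursors. Heme oxygenases open the ring to biliverdin, releasing iron and carbon monoxide, and the biliverdin reductase BLVRA turns this biliverdin into bilirubin. HMOX1 is the inducible heme oxygenase, HMOX2 is the form that most cells keep at a steady level, and the transcription factor BACH1, which itself binds heme, is known as a repressor of HMOX1.

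The MDA-MB-231 line comes from a human breast cancer of the triple-negative type. The 4 groups were 3 BACH1 knockout (KO) clones incubated without glucose (0 g/liter), the same 3 BACH1 KO clones with glucose (4.5 g/liter), 2 control clones (WT) without glucose and the same 2 WT clones with glucose, each for 40 hours. This gave 10 RNA-seq libraries, 1 for each clone at each glucose level. All clones are MDA-MB-231 derivatives. According to the study's methods, knockout cells were made with synthetic guide RNAs and Cas9 protein, and single colonies were identified by Western blot. Each replicate is thus 1 clone, so the spread within a group holds clonal differences, with 1 library per clone and condition. Below, values of a group are given in clone order.

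The deposited values are in TPM, a transcript level corrected for length and scaled to the same sum in every library, so that levels of different genes can be compared. Since TPM holds no read numbers, the sequencing depth of the libraries is unknown. Between 12259 and 12910 genes reached 1 TPM in a library. Of 6 markers known to be high in this line, all 6 were above 1 TPM in every group, VIM (vimentin) at 1321 TPM or more in each library, while the estrogen receptor ESR1, the progesterone receptor PGR and the cadherin CDH1 were under 1 TPM in all 10 libraries. KRT18, ERBB2 and EPCAM, which were on the list of genes expected low, were measured at 150 to 316, 14.3 to 37.2 and 6.72 to 11.3 TPM. Macrophage markers summed to 2.04 to 5.21 TPM over 6 genes. The BACH1 transcript was at 12.6, 23.9 and 17.2 TPM in KO clones and 19.7 and 20.6 TPM in WT clones without glucose, and at 5.18, 2.84 and 3.42 TPM in KO clones and 8.61 and 8.13 TPM in WT clones with glucose. It was thus lower in every KO clone with glucose and overlapped WT without it, and neither difference passed the test over all genes (adjusted p = 1 from limma in both). A Cas9 edit can leave a transcript in place, so the transcript level does not check the knockout. The BACH1 transcript was called higher without glucose in both genotypes, with log2 fold changes of 1.96 in KO (adjusted p = 0.000646 from limma) and 1.17 in WT (adjusted p = 0.0189 from limma).

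Tests were run with limma on log2(TPM + 1) across all 13418 genes, with Benjamini-Hochberg adjustment, and genes with an adjusted p under 0.05 were called. A log2 fold change on this scale understates the change of genes near 1 TPM. Exact permutation tests of single genes have a lower limit, given here for unpaired clones and a doubled single-tail p. It is 0.333 for 2 clones against 2, 0.1 for 3 against 3 and 0.2 for 3 against 2.

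**Figure D1:**
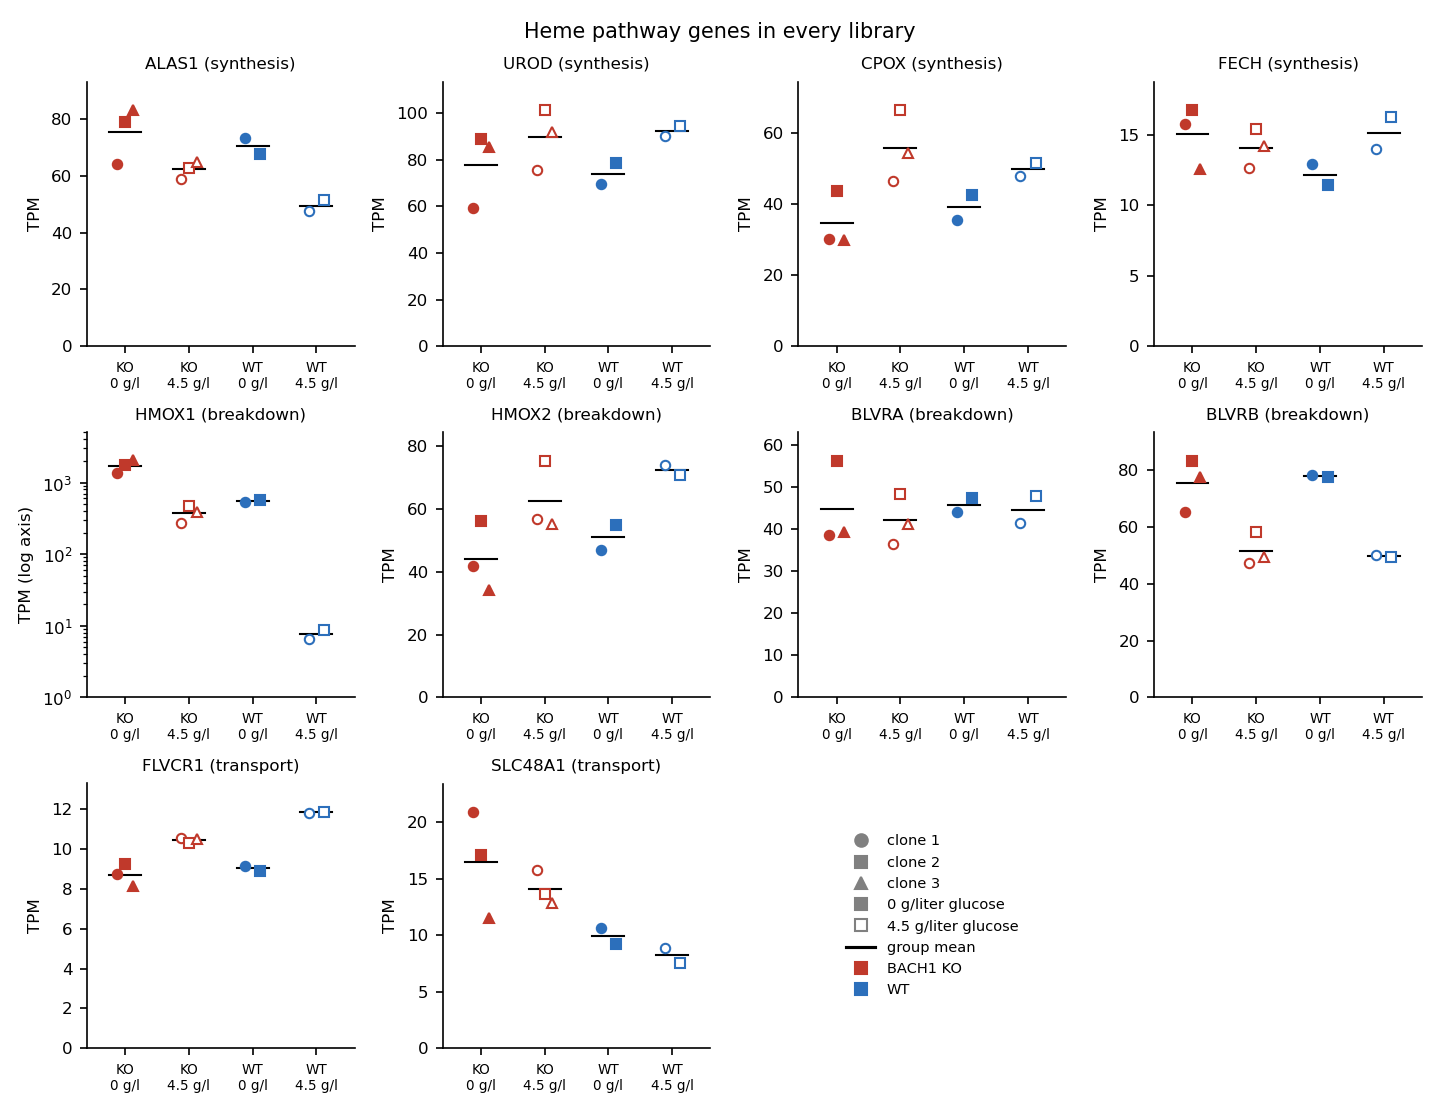
TPM of each of the 10 heme genes in the 10 libraries, with 1 point per clone and the group mean as a line (HMOX1 on a log axis, the others on axes from 0). HMOX1 spans 6.58 to 2033 TPM, while the other 9 genes stay between 7.56 and 101 TPM.

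The question of the comparison between 0 and 4.5 g/liter glucose was how the heme genes respond to glucose starvation in cells with and without BACH1. In BACH1 KO cells without glucose, HMOX1 and BLVRB rose and CPOX fell. In WT cells, HMOX1, BLVRB and ALAS1 rose, and none of the 10 genes passed the test for a lower level. HMOX1 changed by far more than the other members in both genotypes. Over all genes tested, 9.05% were called higher and 19.9% lower in KO cells, and 7.47% were called higher and 15.9% lower in WT cells, so the members' counts of 2 higher and 1 lower in KO and of 3 higher and 0 lower in WT are small numbers beside a broad response. At an unadjusted p under 0.05 from limma, 6 members passed in KO, beside 5554 of all 13418 genes, and 4 in WT, beside 5030. FLVCR1 was the only one of the 4 in WT that was lower. The members' median log2 fold change was 0.08 in KO and -0.13 in WT cells, against -0.15 and -0.17 for all genes. Scaling by median ratios, which brings the median of all genes to 0.00 in both genotypes, kept the sign of every member's response to glucose starvation. It moved the counts over all genes to 1703 higher and 1282 lower in KO cells, against 1214 and 2664 on the deposited scale, and to 1364 and 815 in WT cells, against 1002 and 2136. Quantile normalization gave 1370 higher and 1657 lower in KO, and 1134 and 1170 in WT.

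HMOX1 (chr22:35380361-35394214, plus strand, GRCh38), which catalyses the first step of heme breakdown, was measured at 1356, 1780 and 2033 TPM without glucose in KO clones, against 274, 470 and 394 TPM with glucose. In WT clones it was measured at 532 and 568 TPM without glucose, against 6.58 and 8.78 TPM with glucose. The groups did not overlap in either genotype, and the level was higher without glucose in 5 of 5 clones. The log2 fold change was 2.20 in KO (standard error 0.21, adjusted p = 0.000225 from limma) and 6.0 in WT (standard error 0.26, adjusted p = 4.19e-06 from limma). As a ratio of mean TPM this is 4.54 in KO cells and 71.6 in WT cells. Among all genes of a library, HMOX1 ranked 83, 51 and 46 by TPM without glucose in KO clones, against 389, 221 and 264 with glucose. In WT clones it ranked 217 and 207 without glucose, against 9323 and 8627 with glucose.

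HMOX2 (chr16:4474690-4510347, plus strand), the second heme oxygenase, was at 41.7, 56.2 and 34.2 TPM without glucose in KO clones, against 56.7, 75.3 and 55.3 TPM with glucose. In WT clones it was at 47.0 and 55.0 TPM without glucose, against 73.9 and 70.7 TPM with glucose. Each of the 5 clones had less HMOX2 transcript without glucose, the KO groups overlapped and the WT groups did not. The log2 fold change was -0.51 in KO (95% interval -0.92 to -0.10, adjusted p = 0.0638 from limma) and -0.50 in WT (95% interval -1.0 to 0.01, adjusted p = 0.137 from limma), and neither was called. When the clone was entered as a block, so that each clone was compared with itself, HMOX2 was called lower in both genotypes (adjusted p = 0.00302 in KO and 0.00948 in WT from limma). A call was also made in KO when the library of clone 2 without glucose was left out, at an adjusted p of 0.0192 from limma. In WT it was made when the fit held only the WT groups, at an adjusted p of 0.0114 from limma. Over all alternatives, including the block, the adjusted p ran between 0.00302 and 0.206 in KO and between 0.00948 and 0.437 in WT.

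The balance of the 2 heme oxygenases can be read within a library, where scaling plays no part. HMOX1 made up 97.0, 96.9 and 98.3% of the summed HMOX1 and HMOX2 TPM in KO clones without glucose, against 82.8, 86.2 and 87.7% with glucose. In WT clones the share was 91.9 and 91.2% without glucose, against 8.18 and 11.0% with glucose. HMOX2 was the more abundant transcript only in the 2 WT libraries with glucose, and HMOX1 in the other 8. The 4 groups had separate ranges, and the summed heme oxygenase level was 1398, 1836 and 2067 TPM in KO clones without glucose, against 330, 546 and 449 TPM with glucose, and 579 and 623 TPM in WT clones, against 80.4 and 79.5 TPM. RNA was taken from whole cultures, so fewer cells with the transcript and less transcript per cell cannot be told apart here or below.

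The biliverdin reductases BLVRB and BLVRA are the other breakdown members. Their TPM does not show how much product of the heme oxygenases is reduced. BLVRB (chr19:40447765-40465764, minus strand), which also reduces flavins, was at 65.1, 83.2 and 77.7 TPM without glucose in KO clones, against 47.2, 58.1 and 49.6 TPM with glucose. In WT clones BLVRB was at 78.3 and 77.6 TPM without glucose, against 50.2 and 49.5 TPM with glucose. All 5 clones were higher without glucose and neither genotype's groups overlapped. Its log2 fold change was 0.54 in KO (standard error 0.11, adjusted p = 0.00864 from limma) and 0.64 in WT (standard error 0.14, adjusted p = 0.0132 from limma). When 1 of the 4 WT libraries was left out, whichever it was, BLVRB was no longer called in WT cells, with log2 fold changes of 0.63 to 0.65 and adjusted p of 0.0703 to 0.0846 from limma.

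BLVRA (chr7:43758680-43807342, plus strand), the main biliverdin reductase of adult tissue, was at 38.7, 56.2 and 39.4 TPM without glucose in KO clones, against 36.5, 48.3 and 41.3 TPM with glucose. In WT clones BLVRA was at 44.1 and 47.3 TPM without glucose, against 41.5 and 47.7 TPM with glucose. Its groups overlapped in both genotypes, and 3 clones were higher and 2 lower without glucose. Its log2 fold change was 0.08 in KO (95% interval -0.28 to 0.44) and 0.04 in WT (95% interval -0.41 to 0.48). The ratio of BLVRB to BLVRA TPM was 1.68, 1.48 and 1.98 without glucose in KO clones, against 1.29, 1.20 and 1.20 with glucose, and 1.78 and 1.64 in WT clones, against 1.21 and 1.04.

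**Figure D2:**
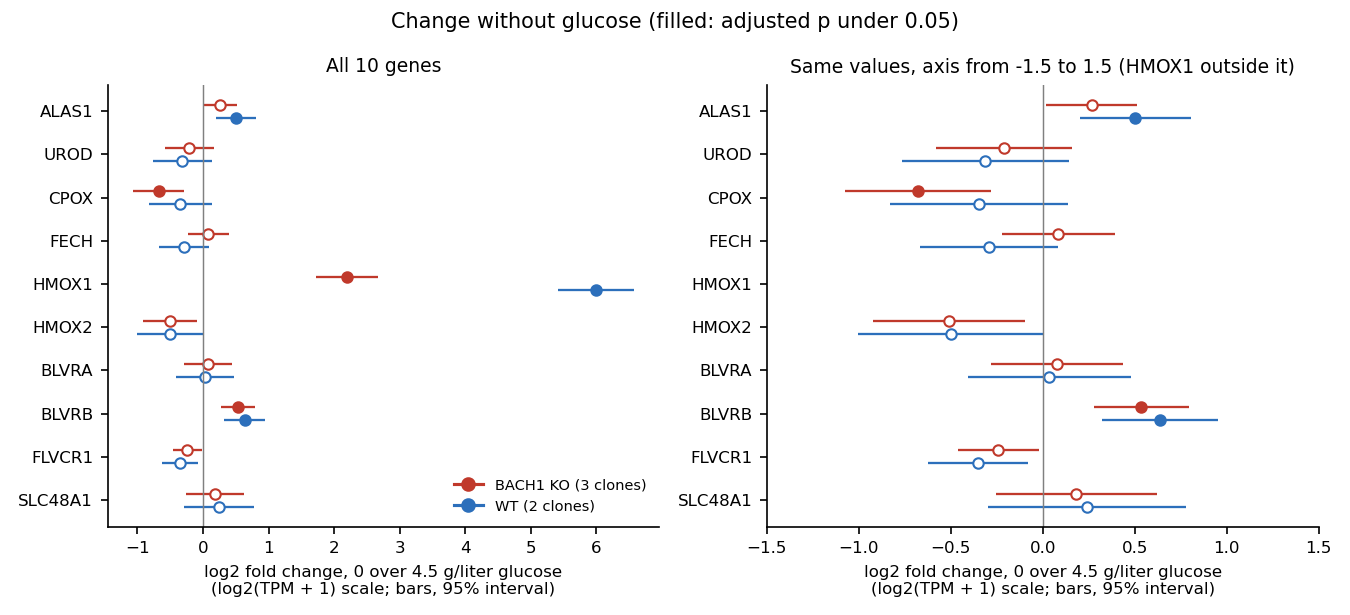
log2 fold change of each heme gene at 0 over 4.5 g/liter glucose (log2(TPM + 1) scale, bars are 95% intervals, filled points have an adjusted p under 0.05), for 3 BACH1 KO clones and 2 WT clones. The left panel holds all values, with HMOX1 at 2.20 in KO and 6.0 in WT, and the right panel shows the same values on an axis that leaves HMOX1 out.

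Of the synthesis enzymes, ALAS1 was called higher without glucose in WT cells, CPOX was called lower in KO cells, and UROD and FECH were called in neither. ALAS1 (chr3:52198086-52214327, plus strand), which condenses glycine and succinyl-CoA, was at 64.1, 79.0 and 83.1 TPM without glucose in KO clones, against 58.9, 62.8 and 64.9 TPM with glucose. In WT clones ALAS1 was at 73.3 and 67.6 TPM without glucose, against 47.5 and 51.3 TPM with glucose. It was higher in 5 of 5 clones, with overlap in KO, where clone 1 without glucose lay below the level of clone 3 with glucose, and without overlap in WT. ALAS1 had a log2 fold change of 0.27 in KO (standard error 0.11, adjusted p = 0.0982 from limma) and 0.50 in WT (standard error 0.13, adjusted p = 0.0266 from limma). In KO cells ALAS1 was called with the clone as a block (adjusted p = 0.0300), with median-ratio scaling (log2 fold change 0.43, adjusted p = 0.0180), with quantile normalization (adjusted p = 0.0181) and without clone 1 at 0 g/liter (adjusted p = 0.0121, all from limma), in a range of 0.0121 to 0.256 over all alternatives. Leaving out 1 of the 4 WT libraries, whichever it was, ended the WT call (adjusted p of 0.0842 to 0.158 from limma).

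CPOX (chr3:98579446-98593648, minus strand), which oxidises coproporphyrinogen in the mitochondrial intermembrane space, was at 30.3, 43.8 and 29.9 TPM without glucose in KO clones, against 46.6, 66.5 and 54.4 TPM with glucose. In WT clones CPOX was at 35.5 and 42.7 TPM without glucose, against 48.0 and 51.6 TPM with glucose. Every clone was lower without glucose and neither genotype's groups overlapped. CPOX had a log2 fold change of -0.68 in KO (standard error 0.18, adjusted p = 0.0188 from limma) and -0.35 in WT (adjusted p = 0.275 from limma). The KO call was lost when only the KO groups entered the fit (adjusted p = 0.0552), without clone 2 at 4.5 g/liter (adjusted p = 0.0709) and without clone 3 at 0 g/liter (adjusted p = 0.0627, all from limma). With the clone as a block CPOX was called lower in WT too (adjusted p = 0.0298 from limma, within 0.0298 to 0.665 over all alternatives).

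UROD (chr1:45010950-45015575, plus strand), the cytosolic decarboxylase that acts just before CPOX, was at 59.2, 89.0 and 85.5 TPM without glucose in KO clones, against 75.5, 101 and 91.9 TPM with glucose. In WT clones UROD was at 69.6 and 78.6 TPM without glucose, against 90.0 and 94.3 TPM with glucose. It was lower in all 5 clones, with changes of -16.2, -12.3 and -6.41 TPM in KO clones and -20.4 and -15.6 TPM in WT clones. The SD among KO clones, 16.3 TPM without and 13.1 TPM with glucose, describes levels of different clones and not these changes. Neither change was called, at log2 fold changes of -0.21 in KO (adjusted p = 0.367 from limma) and -0.31 in WT (adjusted p = 0.295 from limma). With the clone as a block both were called (adjusted p = 0.0488 in KO and 0.0275 in WT from limma), in ranges over all alternatives of 0.0488 to 0.889 in KO and 0.0275 to 0.681 in WT. The block was run on the deposited scale, where the median of all genes was -0.15 in KO and -0.17 in WT. Median-ratio scaling without the block left UROD at -0.045 in KO (adjusted p = 0.852) and -0.12 in WT (adjusted p = 0.681, both from limma).

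FECH (chr18:57544377-57586732, minus strand), ferrochelatase, which inserts iron into protoporphyrin as the last step, was at 15.8, 16.8 and 12.6 TPM without glucose in KO clones, against 12.7, 15.4 and 14.2 TPM with glucose. In WT clones FECH was at 12.9 and 11.4 TPM without glucose, against 14.0 and 16.3 TPM with glucose. It was higher without glucose in KO clones 1 and 2 and lower in KO clone 3 and both WT clones, and it was called in neither genotype, the clone block included. The ratio of the first to the last enzyme, ALAS1 over FECH TPM, was 4.06, 4.71 and 6.58 without glucose in KO clones, against 4.65, 4.08 and 4.56 with glucose, which overlap. In WT clones this ratio was 5.67 and 5.91 without glucose, against 3.39 and 3.14 with glucose.

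The 250 bases before the transcription start are shown for the 3 members of smaller change that passed the test in either genotype, BLVRB, ALAS1 and CPOX, and for FECH, which did not. They were taken from RefSeq on GRCh38.p14 and run 5′ to 3′ on the gene's strand, and capitals mark a match to a searched motif. The windows are chr19:40465746-40465995 (minus strand) for BLVRB, chr3:52197833-52198082 (plus strand) for ALAS1, chr3:98593612-98593861 (minus strand) for CPOX and chr18:57586703-57586952 (minus strand) for FECH.
BLVRB: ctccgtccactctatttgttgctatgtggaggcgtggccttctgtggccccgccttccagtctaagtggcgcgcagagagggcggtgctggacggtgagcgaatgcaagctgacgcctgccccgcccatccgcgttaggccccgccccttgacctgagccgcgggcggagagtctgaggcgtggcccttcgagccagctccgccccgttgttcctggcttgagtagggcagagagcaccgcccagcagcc
ALAS1: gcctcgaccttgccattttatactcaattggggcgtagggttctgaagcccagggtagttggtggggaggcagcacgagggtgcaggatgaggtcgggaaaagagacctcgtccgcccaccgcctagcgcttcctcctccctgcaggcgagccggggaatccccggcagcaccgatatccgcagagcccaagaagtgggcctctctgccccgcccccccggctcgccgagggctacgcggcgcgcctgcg
CPOX: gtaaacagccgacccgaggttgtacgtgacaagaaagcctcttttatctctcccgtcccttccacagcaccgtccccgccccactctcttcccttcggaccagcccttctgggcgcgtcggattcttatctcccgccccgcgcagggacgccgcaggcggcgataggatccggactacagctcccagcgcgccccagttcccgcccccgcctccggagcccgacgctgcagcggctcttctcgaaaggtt
FECH: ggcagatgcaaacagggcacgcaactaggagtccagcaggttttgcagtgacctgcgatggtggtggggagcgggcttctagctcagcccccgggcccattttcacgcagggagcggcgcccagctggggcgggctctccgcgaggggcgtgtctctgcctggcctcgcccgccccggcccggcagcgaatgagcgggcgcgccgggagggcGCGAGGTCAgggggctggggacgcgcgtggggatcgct
Entries were found for 9 of the 10 members, all but HMOX1, with a second window for HMOX2. The motifs, chosen after the values were seen and searched on both strands, were TGACNNNGC (the core of the antioxidant response element, which BACH1 binds with small MAF proteins), TGAGTCA (the AP-1 core), TGATGNAA (the core of the element bound by C/EBP and ATF4 dimers) and TGCGCA (the core of the NRF1 site). The only match was TGACNNNGC in the FECH window, on the opposite strand, starting 38 bases before the transcription start. None of the motifs was in the BLVRB, ALAS1 and CPOX windows. Of the 35116 promoters of the table, 10.9% hold TGACNNNGC in the same window, 4.20% TGAGTCA, 3.14% TGATGNAA and 6.89% TGCGCA. A match describes the letters in this window and is not a measured binding site.

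**Figure D3:**
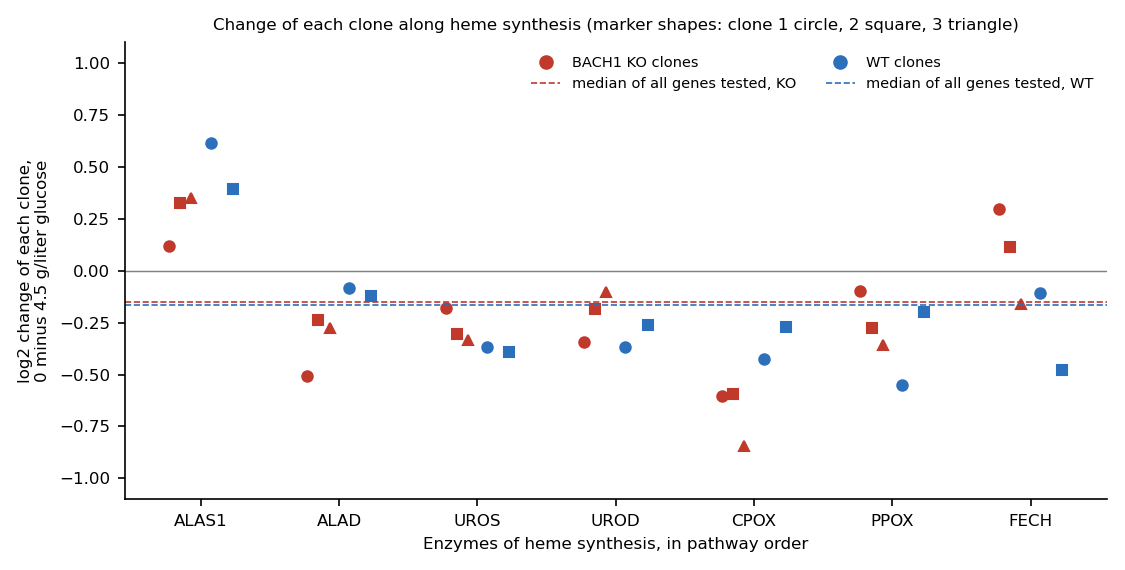
log2 change in TPM + 1 of each clone at 0 minus 4.5 g/liter glucose for 7 enzymes of heme synthesis in pathway order, with 1 point per clone and dashed lines at the median of all genes tested (-0.15 in KO and -0.17 in WT). ALAS1 is above 0 in all 5 clones, ALAD, UROS, UROD, CPOX and PPOX are below 0 in all 5, and FECH is mixed.

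Other enzymes of the pathway were described beside the members. ALAD, UROS and PPOX, which act between ALAS1 and FECH, were each lower without glucose in 5 of 5 clones, and none of these 3 was called higher. UROS, which closes the ring, was called lower in both genotypes, with log2 fold changes of -0.27 in KO (adjusted p = 0.0433 from limma) and -0.38 in WT (adjusted p = 0.0325 from limma). Together with the synthesis members these make 7 enzymes, which are not the whole pathway. Of the 7, 0 were called higher and 2 lower in KO cells, where 9.05% and 19.9% of all genes were. In WT cells 1 was called higher and 1 lower, where 7.47% and 15.9% of all genes were. Such small counts cannot be set apart from the background. The median log2 fold change of the 7 enzymes was -0.24 in KO and -0.31 in WT cells, where the median of all genes tested was -0.15 and -0.17. The erythroid first enzyme ALAS2 was listed at 0 TPM in all 10 libraries and was not tested.

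Both transporters were at low levels throughout, and neither passed the test in either genotype. FLVCR1 (chr1:212858275-212899363, plus strand), known as an exporter of heme and a carrier of choline, was at 8.76, 9.23 and 8.15 TPM without glucose in KO clones, against 10.6, 10.3 and 10.5 TPM with glucose. In WT clones FLVCR1 was at 9.18 and 8.92 TPM without glucose, against 11.8 and 11.9 TPM with glucose. All 5 clones were lower without glucose and the groups overlapped in neither genotype. FLVCR1 had a log2 fold change of -0.24 in KO (standard error 0.10, adjusted p = 0.0952 from limma) and -0.35 in WT (standard error 0.12, adjusted p = 0.0611 from limma). In WT cells FLVCR1 was called with the clone as a block (adjusted p = 0.0470), without a mean-variance trend (adjusted p = 0.0470) and with only the WT groups in the fit (adjusted p = 0.0319, all from limma), in a range of 0.0319 to 0.364 over all alternatives, the highest with median-ratio scaling.

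SLC48A1 (chr12:47753916-47782751, plus strand), also called HRG1, carries heme out of endosomes and lysosomes into the cytosol. It was at 20.9, 17.1 and 11.5 TPM without glucose in KO clones, against 15.7, 13.6 and 12.8 TPM with glucose. In WT clones SLC48A1 was at 10.6 and 9.20 TPM without glucose, against 8.90 and 7.56 TPM with glucose. It was higher without glucose in 4 of 5 clones, KO clone 3 being the exception, and the change was not called in KO (log2 fold change 0.18, 95% interval -0.26 to 0.62) or WT (0.24, 95% interval -0.30 to 0.78).

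Groups without overlap between the glucose levels were found for 4 of the 10 members in KO clones, namely HMOX1, BLVRB, CPOX and FLVCR1, and for 9 in WT clones, all but BLVRA. Over all genes tested, 39.5% did not overlap in KO and 75.4% in WT, so these counts stand near the background. With the clone as a block, 3 members were called higher in KO (HMOX1, BLVRB and ALAS1) where 14.6% of all genes were, and 3 lower (CPOX, HMOX2 and UROD) where 31.9% were. In WT the block also gave 3 higher (HMOX1, BLVRB and ALAS1) where 12.4% of all genes were called higher, and 4 lower (HMOX2, FLVCR1, CPOX and UROD) where 28.6% were called lower. The block was not combined with median-ratio scaling, so its calls of lower genes include any shift of all genes.

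BACH1 KO was compared with WT at each glucose level to ask which heme genes depend on BACH1. With glucose, HMOX1 was the only member called, at 274, 470 and 394 TPM in KO clones against 6.58 and 8.78 TPM in WT clones. Every KO clone lay far above both WT clones, and the log2 fold change was 5.43 (standard error 0.24, adjusted p = 2.22e-05 from limma). Of all genes tested, 0.0373% were called higher and 0.0373% lower, that is 5 genes each way, so HMOX1 was 1 of 5 genes called higher and 0 members were among those called lower. Without WT clone 1 at 4.5 g/liter, HMOX1 was the only gene called higher and 1 gene was called lower. Without glucose, HMOX1 was at 1356, 1780 and 2033 TPM in KO clones against 532 and 568 TPM in WT clones. These groups did not overlap either, but the log2 fold change of 1.63 (standard error 0.24) was not called (adjusted p = 0.135 from limma). It was called with the clone as a block (adjusted p = 0.0456) and without KO clone 1 at 4.5 g/liter (adjusted p = 0.0337, both from limma), in a range of 0.0337 to 1 over all alternatives. In this comparison 0.00745% of all genes were called higher and 0.0298% lower, with 0 members in either, and with the block 0.0149% were higher, with 1 member, and 0.0298% lower, with 0. No clone is in both KO and WT, so this block did not compare a clone with itself. It entered the clone as a correlation of 0.455 between the 2 libraries of a clone. At an unadjusted p under 0.05, 2 members (HMOX1 and SLC48A1) and 389 of all genes passed without glucose, and 3 members (also ALAS1) and 426 of all genes with glucose, and these members were higher in KO.

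**Figure D4:**
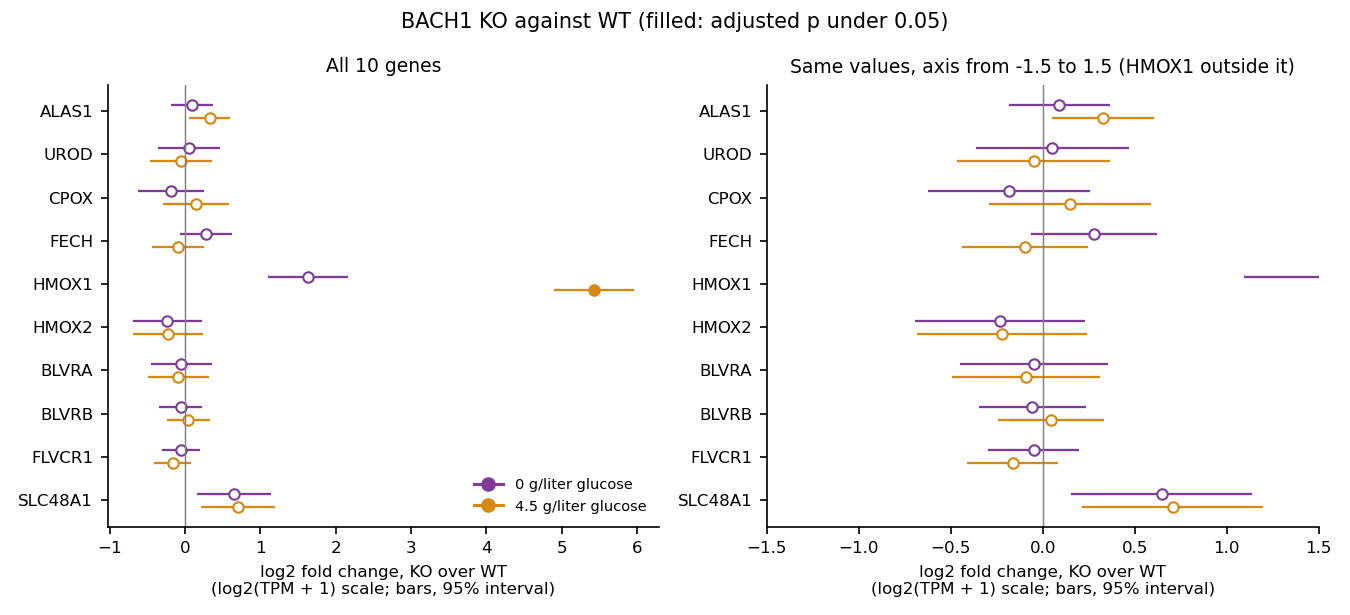
log2 fold change of each heme gene in BACH1 KO over WT clones (log2(TPM + 1) scale, bars are 95% intervals, filled points have an adjusted p under 0.05), at 0 and at 4.5 g/liter glucose. HMOX1 lies at 1.63 and 5.43, and SLC48A1 at 0.65 and 0.71. The right panel repeats the values on an axis from -1.5 to 1.5, which leaves out most of HMOX1.

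Next to HMOX1, SLC48A1 had the largest fold change of the members in KO over WT, at either glucose level. The 3 KO clones were at 20.9, 17.1 and 11.5 TPM and the 2 WT clones at 10.6 and 9.20 TPM without glucose, and at 15.7, 13.6 and 12.8 TPM against 8.90 and 7.56 TPM with glucose. No KO library was as low as a WT library at the same glucose level. The log2 fold change was 0.65 without glucose (95% interval 0.16 to 1.14) and 0.71 with glucose (95% interval 0.22 to 1.20), and neither passed adjustment over all genes (adjusted p = 1 from limma in both). ALAS1 did not overlap with glucose either, at 58.9, 62.8 and 64.9 TPM in KO against 47.5 and 51.3 TPM in WT, a log2 fold change of 0.33 (95% interval 0.05 to 0.60, adjusted p = 1 from limma). FLVCR1 was the fourth such gene, at 10.6, 10.3 and 10.5 TPM in KO against 11.8 and 11.9 TPM in WT. Groups without overlap were thus counted for 4 members with glucose, where 20.9% of all genes had none, and for 2 members without glucose (HMOX1 and SLC48A1), where 13.7% had none. For the other 6 members the groups overlapped at both glucose levels, with log2 fold changes between -0.23 and 0.28 and adjusted p = 1 from limma.

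The test of the difference between the responses to glucose asks whether KO and WT cells responded unequally. HMOX1 was the only gene of all 13418 called, with a difference of -3.80 on the log2 scale, KO minus WT (standard error 0.33, adjusted p = 0.0122 from limma), so 0% of all genes were called higher and 0.00745% lower, that is 0 members higher and 1 lower. At an unadjusted p under 0.05, HMOX1 was also the only member, with 136 of all genes. With pseudocounts of 0.5 or 0.1 TPM, 3 genes were called lower in place of 1, and with no filter on low values 6 were. Leaving out 1 of the 4 WT libraries, whichever it was, ended this call, with differences of -3.99 to -3.62 and adjusted p of 0.0624 to 0.165 from limma. The sign belongs to the log scale. In TPM, HMOX1 was higher without glucose by 1083, 1310 and 1640 in the KO clones and by 525 and 560 in the WT clones, so the KO clones gained more transcript in absolute terms, by 802 TPM between the group means, and less as a ratio. The gains of the 2 genotypes did not overlap on either scale. For the other 9 members the differences lay between -0.33 and 0.37, with adjusted p near 1 from limma, and their 95% intervals went as low as -0.96 (CPOX) and as high as 0.86 (FECH).

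The order of levels shows where HMOX1 entered the group. In WT clones with glucose it had the lowest mean of the 10 genes, 7.68 ± 1.56 TPM (SD, n = 2), within the spread of SLC48A1 at 8.23 ± 0.950 TPM. In the other 3 groups it had the highest, with 1723 ± 342 TPM in KO without glucose (SD, n = 3), 379 ± 99.1 TPM in KO with glucose (SD, n = 3) and 550 ± 25.8 TPM in WT without glucose (SD, n = 2), above every library of every other member. Among the others, UROD had the highest mean in KO cells at either glucose level and in WT cells with glucose, and UROD, ALAS1 and BLVRB lay within each other's spread in KO clones without glucose. HMOX1 alone made up 79.7, 79.8 and 84.2% of the summed TPM of the 10 genes in KO clones without glucose, against 43.2, 51.0 and 49.9% with glucose, and 58.3 and 58.8% in WT clones, against 1.68 and 2.14%. The 4 synthesis members summed to 170, 229 and 211 TPM in KO clones without glucose, against 194, 246 and 225 TPM with glucose, and to 191 and 200 TPM in WT clones, against 199 and 213 TPM.

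Genes around the pathway were described from lists. Of 14 further transporters of heme, porphyrins or mitochondrial iron, all were tested. ABCB10, a mitochondrial inner membrane transporter tied to heme synthesis, was the only one called in both genotypes. It was at 8.99, 7.73 and 7.86 TPM without glucose in KO clones, against 13.4, 14.1 and 14.0 TPM with glucose, and at 7.70 and 8.50 TPM in WT clones, against 15.7 and 15 TPM. Its log2 fold change was -0.69 in KO (standard error 0.10, adjusted p = 0.00182 from limma) and -0.85 in WT (standard error 0.13, adjusted p = 0.00286 from limma), and no library without glucose reached the lowest library with glucose. ABCG2, a plasma membrane exporter of porphyrins and drugs, was not called in KO (log2 fold change 0.36, adjusted p = 0.116 from limma) and was called higher in WT, at 2.68 and 2.24 TPM without glucose against 1.05 and 1.04 TPM with glucose (log2 fold change 0.76, adjusted p = 0.0215 from limma). The difference between its responses in KO and WT did not pass its own test (adjusted p = 1.00 from limma).

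Of 9 genes that sense heme or control its synthesis, NR1D1, the nuclear receptor REV-ERB alpha, whose ligand is heme, was called higher in both genotypes. It was at 16.5, 32.3 and 41.3 TPM without glucose in KO clones, against 5.43, 6.33 and 10.7 TPM with glucose, and at 32.6 and 30.1 TPM in WT clones, against 4.70 and 5.34 TPM. The log2 fold change was 1.83 in KO (adjusted p = 0.00357 from limma) and 2.43 in WT (adjusted p = 0.00370 from limma), and it was higher in all 5 clones. PPARGC1A, a coactivator known to induce ALAS1 in liver, was called higher in KO and not in WT cells, with log2 fold changes of 1.05 in KO (adjusted p = 0.0450 from limma) and 1.22 in WT (adjusted p = 0.0624 from limma), and the difference between the genotypes did not pass its own test (adjusted p = 1.00 from limma). Its levels were low, at 1.18 to 4.99 TPM without glucose in KO clones, against 0.626 to 1.11 TPM with glucose. In WT clones PPARGC1A was at 2.43 and 4.04 TPM without glucose, against 0.599 and 0.994 TPM with glucose. DGCR8, a heme-binding subunit of the microRNA processor, was called lower in both, with log2 fold changes of -0.64 in KO (adjusted p = 0.0293 from limma) and -0.70 in WT (adjusted p = 0.0499 from limma). Of 5 genes for bilirubin conjugation and export, 3 were tested and 1 was called, ABCC2, an exporter of conjugated bilirubin, with log2 fold changes of 0.71 in KO (adjusted p = 0.0203 from limma) and 0.70 in WT (adjusted p = 0.0546 from limma), a difference that did not pass its own test (adjusted p = 1.00 from limma). ABCC2 was low too, at 1.34 to 1.91 TPM without glucose in KO clones, against 0.405 to 0.897 TPM with glucose. In WT clones ABCC2 was at 1.57 and 1.88 TPM without glucose, against 0.492 and 0.882 TPM with glucose. None of the genes on these 4 lists was called between KO and WT or in the difference of the responses. Of all genes tested, 0.0373% were called higher and 0.0373% lower in KO over WT with glucose, and 0.00745% and 0.0298% without glucose. For the difference of the responses the shares were 0% and 0.00745%, so the absence of calls on the lists is near the background.

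Other cells with a high heme turnover were checked by their markers. Of 10 erythroid markers, 9 stayed under 1 TPM in every library. The exception was HBA1, an alpha globin gene, at 2.21, 7.06 and 2.92 TPM without glucose in KO clones, against 0, 0.00417 and 0 TPM with glucose. In WT clones HBA1 was at 4.94 and 5.27 TPM without glucose, against 0 TPM in both with glucose. It was called higher in KO (adjusted p = 0.00114 from limma) and in WT (adjusted p = 0.00210 from limma), so an erythroid marker moved with HMOX1, ALAS1 and BLVRB, and its part in their values was not tested. Its near-identical copy HBA2 was between 0 and 0.688 TPM, and reads that fit both copies may have been assigned to either one, so the split between the copies is uncertain. Of the other defining erythroid genes, HBB was at most 0.223 TPM, and ALAS2 and AHSP were at 0 TPM in all 10 libraries. The erythroid list summed to 2.81 to 7.98 TPM without glucose in KO clones, against 0.158 to 1.11 TPM with glucose, and to 5.37 to 5.67 TPM in WT clones, against 0.414 to 0.584 TPM. Of the 6 macrophage markers CD14 was called higher without glucose in both genotypes, at 0.763 to 2.09 TPM without glucose and 0.294 to 0.732 TPM with glucose, and its part was not tested either.

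By the mean absolute difference of centred log2(TPM + 1) over the 10 libraries, the 5 genes most like HMOX1 were HIST2H2AA4 (1.35), CPNE7 (1.43), RNA5SP217 (1.45), FTH1 (1.47) and GCLM (1.48). A gene with no change at all would score 2.07. The score depends largely on the size of the changes, so it does not show by itself whether a gene moves with HMOX1. FTH1, the ferritin heavy chain that stores iron, averaged 14569 TPM in KO and 5574 TPM in WT without glucose, and 7685 TPM in KO and 2187 TPM in WT with glucose. GCLM, the modifier subunit of glutamate-cysteine ligase, averaged 236 TPM in KO and 136 TPM in WT without glucose, and 141 TPM in KO and 48.3 TPM in WT with glucose. FTH1 was called higher without glucose in KO (log2 fold change 0.91) and WT (1.35), and in KO over WT without (1.37) and with glucose (1.81). GCLM was called higher in the same comparisons except KO over WT without glucose. Both genes were picked for their likeness to HMOX1 in these same libraries, so their calls are not independent of that choice. RNA5SP217 was not called between glucose levels in KO (-0.09). HIST2H2AA4 and CPNE7 were not called in KO over WT at either glucose level. HIST2H2AA4 and RNA5SP217 belong to families of near-identical copies, and their levels are uncertain. The members had higher scores, ALAS1 at rank 973 (1.90), BLVRB at 1228 (1.92) and SLC48A1 at 1306 (1.93) of 13417 genes. HMOX2 was last of them at rank 11091 (2.23). A gene of small change scores near 2.07 whichever way it moves, so these ranks do not compare directions.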

How the data were processed

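RNA-seq was analysed from 10 libraries of MDA-MB-231 cells, 3 BACH1 KO and 2 WT clones at 0 and 4.5 g/liter glucose. The values deposited by the authors are TPM for each gene symbol. They were obtained by pseudoalignment (kallisto 0.44.0, with GRCh38.p12 as the build), and bcl2fastq 2.19 is named in the submitters' processing notes too. The annotation release is not given in the sources used here. The authors used DESeq2 on counts, which were not analysed here, so no count test was run and the precision due to depth is unknown. Of 36459 symbols, 27 read as dates and were removed (0.107 to 0.151% of the TPM). Mitochondrially encoded genes took 22.4 to 29.7% of the TPM. No pair of libraries held identical values, and 0 columns belonged to other samples.

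log2(TPM + 1) was fitted with limma 3.58.1 in R 4.3.3 as 1 mean per group, eBayes with a trend, 6 residual degrees of freedom and two-sided tests, over genes with at least 1 TPM in 2 libraries. P-values of this fit rest on the spread of levels between clones within groups and ignore that each clone gave 2 libraries. For the responses to glucose, the spread of the changes within clones enters only the fit with the clone as a block. There the clone was a fixed term, also for the difference of the responses. For KO against WT, the block was a correlation of 0.455 between the 2 libraries of a clone. The fit of 1 mean per group was tested on simulated data with independent noise in each library. The simulation held no clone effect, so it does not show how the p-values behave when libraries pair by clone. The labels give each clone number at both glucose levels, so samples pair by clone. The 2 libraries of a KO clone deviated together from their group means, with r = 0.609, 0.426 and 0.507. For WT, r was 0.0991, which is a single value, since the deviations of 2 clones from their mean mirror each other. Alternatives were pseudocounts of 0.5 and 0.1 TPM, a filter of 5 TPM or none, median-ratio scaling, quantile normalization, the clone as a block, no trend, only the groups compared, an adjusted p under 0.1 and leaving out each library. HMOX1 on the TPM scale was added after seeing the data.

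The members and lists were chosen with earlier results of these data known. Named were all members, BACH1, list genes called in any comparison and the 5 genes most like HMOX1. Gene places come from GENCODE 44 on GRCh38, and promoters from RefSeq on GRCh38.p14. Some genes of the lists are not reported here.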

Additional observations from a re-analysis of the deposited data

Results flagged for a closer look

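HMOX1 responded unequally to glucose starvation in BACH1 KO and in WT cells, which the test of the difference itself found at -3.80 on the log2(TPM + 1) scale, KO minus WT (adjusted p = 0.0122 from limma). This call was lost when 1 of the 4 WT libraries was left out, whichever it was. HMOX1 was higher without glucose in 3 of 3 KO clones, by 1.92 to 2.37 on the log2 scale, and in 2 of 2 WT clones, by 5.86 to 6.13. On the TPM scale the order is the other way, with gains of 1083 to 1640 TPM in KO clones and 525 to 560 TPM in WT clones. Groups held at most 3 libraries, so none was searched for a library far from the others.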

How the results depend on the processing

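The HMOX1 responses to glucose starvation in KO and WT cells, its difference between KO and WT with glucose and the BLVRB response in KO kept their direction and their side of the threshold under every alternative run. When each clone was entered as a block, pairing its 2 libraries, 6 members were called in KO and 7 in WT, against 3 in each without the block. Between KO and WT without glucose, where the block was a correlation between the 2 libraries of a clone, 1 was called, against 0. The block changed no other count of called members. With only the groups compared in the fit, 7 were called in WT, and at an adjusted p under 0.1, 6 in KO. Without 1 library at a time, the count in WT was as low as 1 (without any of the WT libraries), the count between KO and WT without glucose was 0 or 1 (1 without KO clone 1 at 4.5 g/liter), and the count for the difference of the responses was 0 or 1 (0 without any of the WT libraries). Without KO clone 2 at 4.5 g/liter or KO clone 3 at 0 g/liter the count in KO was 2, and without KO clone 1 or 2 at 0 g/liter it was 4. Such a fit, for a WT library, leaves 1 library in a WT group, which is assumed to vary like the other groups.

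Over all genes, 1214 were called higher and 2664 lower in KO, and 1002 and 2136 in WT. The block gave 1959 and 4278 in KO and 1662 and 3842 in WT, only the groups compared gave 757 and 1467 in KO and 1921 and 4167 in WT, and the fits without 1 WT library gave 335 to 375 higher and 404 to 666 lower in WT. Without KO clone 2 at 4.5 g/liter the counts in KO were 869 and 1598. Between KO and WT without glucose, 1 was higher and 4 lower, against 1 and 27 with no filter on low values. With glucose, 5 were higher and 5 lower, against 3 and 7 with no filter, 3 and 2 with only the groups compared, 1 and 1 without WT clone 1 at 4.5 g/liter, and 3 and 4 without WT clone 2 at 4.5 g/liter.

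Some uncalled changes turned sign when 1 library was left out. For the response to glucose, BLVRA ran from -0.10 to 0.18 in KO and from -0.063 to 0.14 in WT. For KO over WT with glucose, UROD ran from -0.14 to 0.067, FECH from -0.20 to 0.0077, BLVRA from -0.19 to 0.0098 and BLVRB from -0.043 to 0.10, and without glucose UROD ran from -0.054 to 0.24, BLVRA from -0.22 to 0.042 and BLVRB from -0.13 to 0.044. For the difference of the responses, UROD ran from -0.015 to 0.29, SLC48A1 from -0.24 to 0.16, HMOX2 from -0.20 to 0.15, BLVRA from -0.13 to 0.14 and BLVRB from -0.17 to 3.11e-06. The HMOX1 gain in TPM, KO minus WT, was 654 to 932 TPM without 1 clone at a time.

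TPM keeps no counts, so the sampling error of low genes such as FLVCR1 and SLC48A1 is unknown. Each group held 2 or 3 clones.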
